A study of Mus musculus with 6 samples.

Results

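CatSper is the calcium channel of the sperm tail, and the genes described here encode its subunits. They were the 9 rows of the deposited gene table with the symbols Catsper1, Catsper2, Catsper3, Catsper4, Catsperb, Catsperd, Catsperg1, Catsperg2 and Catsperz, chosen by symbol out of 45777 genes, and all 9 were found. The samples were testes of wild-type (WT) mice that received 10 ml per head each day of an LDC liquid diet with ethanol for 16 weeks, or of the control LDC liquid diet for the same time, after 5 days in which all mice took the control diet. The labels give neither strain nor age. Each diet had 3 libraries of total RNA depleted of ribosomal RNA, with 38935654 to 47420249 counted reads per library. The labels do not state whether replicate libraries stem from different mice, and p-values therefore reflect only how far these libraries differ, which may be technical.

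CatSper opens when the inside of the sperm becomes alkaline, and the calcium that enters drives the strong, asymmetric tail beat known as hyperactivated motility. Catsper1, Catsper2, Catsper3 and Catsper4 each encode one of the 4 different proteins that line the pore, while the beta, gamma, delta, epsilon and zeta proteins are auxiliary subunits. Mice that lack any one of the pore subunits make sperm that cannot hyperactivate, and the males are infertile. In the testis the genes are transcribed in meiotic and postmeiotic germ cells.

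Promoter windows of 2 pore genes are shown because they differ widely in CG content while both genes stood above the other pore genes in level. Both are windows of 300 bases from RefSeq on GRCm38.p6, read on the minus strand, with each CG pair in capitals. The Catsper2 window lies at chr2:121413743-121414042 and the Catsper4 window at chr4:134227334-134227633. The Catsper2 window lies wholly within the annotated span of the gene, whose upstream end is at 121414598. The Catsper4 window contains the upstream end of its gene, at 134227431.
Catsper2: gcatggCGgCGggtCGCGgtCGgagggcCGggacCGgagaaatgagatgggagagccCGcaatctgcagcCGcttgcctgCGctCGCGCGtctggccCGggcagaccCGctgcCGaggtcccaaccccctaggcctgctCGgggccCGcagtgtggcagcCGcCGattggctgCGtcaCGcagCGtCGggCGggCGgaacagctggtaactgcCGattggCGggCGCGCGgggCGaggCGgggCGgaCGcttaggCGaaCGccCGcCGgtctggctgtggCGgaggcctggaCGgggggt
Catsper4: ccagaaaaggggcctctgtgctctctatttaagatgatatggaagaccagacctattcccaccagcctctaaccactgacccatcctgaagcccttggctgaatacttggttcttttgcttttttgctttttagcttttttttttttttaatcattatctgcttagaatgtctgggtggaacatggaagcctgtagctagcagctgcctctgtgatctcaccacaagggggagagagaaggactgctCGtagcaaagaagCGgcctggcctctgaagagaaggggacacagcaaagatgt
The Catsper2 window held 41 CG pairs and the Catsper4 window 2, against a median of 7 over 27025 promoters, 1 per gene, of the same length. Of the members, 7 had a window in that table. Catsperd was also rich in CG pairs, with 29 in its first window, while Catsper3 had 3 and Catsperb had 1. A divergent neighbour starts within the Catsper2 window: Pdia3, which encodes a protein disulfide isomerase of the endoplasmic reticulum, lies on the opposite strand and shares 18 exonic bases with Catsper2.

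The gamma subunit has 2 gene copies in the mouse, Catsperg1 (chromosome 7, 29181532 to 29215589 on GRCm38.p6) and Catsperg2 (chromosome 7, 29697217 to 29727049), both on the minus strand. Their longest GENCODE M21 transcripts were 96.9% identical over 4382 aligned bases, and 19.7% of the stretches of 100 bases in Catsperg1 also stood in Catsperg2. The 120 coding bases in which they differed most are shown with the differing bases in capitals. They come from exons 20 and 21 of each gene, spanning chr7:29189991-29190295 in Catsperg1 and chr7:29704849-29705153 in Catsperg2.
Catsperg1: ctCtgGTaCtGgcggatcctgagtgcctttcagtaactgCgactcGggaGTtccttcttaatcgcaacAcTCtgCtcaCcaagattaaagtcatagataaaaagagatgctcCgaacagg
Catsperg2: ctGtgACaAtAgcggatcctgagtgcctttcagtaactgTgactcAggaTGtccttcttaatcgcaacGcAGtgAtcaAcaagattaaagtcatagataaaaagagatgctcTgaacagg
Even this window had only 15 differing bases. The longest coding run without a difference had 341 bases, in exons 17 to 19 of Catsperg1, and its first 120 bases are the same in both genes.
Both gamma genes: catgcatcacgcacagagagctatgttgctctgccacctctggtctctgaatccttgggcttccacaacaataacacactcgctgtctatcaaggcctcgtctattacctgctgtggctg
The labels do not say how reads that match both copies were counted, and the split of counts between Catsperg1 and Catsperg2 is uncertain.

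All 9 genes were well expressed in the testes of both diets. Levels between genes are given in TPM, the authors' deposited value per transcript length in which every library has the same sum. Catsperz, the gene of the small zeta subunit, was the most abundant at a mean of 689 TPM over the 6 libraries, and ranked 147 among all 45777 genes. The pore gene Catsper2 followed at 191 TPM and Catsper4 at 157 TPM, and the libraries of these 3 genes did not overlap with those of the next gene in the order. In the middle of the order neighbours overlapped. Catsperd (delta) stood at 108 TPM, Catsperg2 at 98.3, Catsperg1 at 93.3, the pore gene Catsper3 at 77.0 and Catsperb (beta) at 76.0 TPM, each overlapping with its neighbour. Genes farther apart in it did not all overlap: the lowest Catsperd library, at 99.1 TPM, lay above the highest of Catsper3, at 90.6, and of Catsperb, at 83.3, and every Catsperg2 library was also above those of Catsperb. Catsper1, the pore gene whose loss first showed the need for the channel in mice, was lowest at 51.3 TPM, below every library of Catsperb. Even so, 92.6% of the genes in the table had a lower mean than Catsper1.

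**Figure D1:**
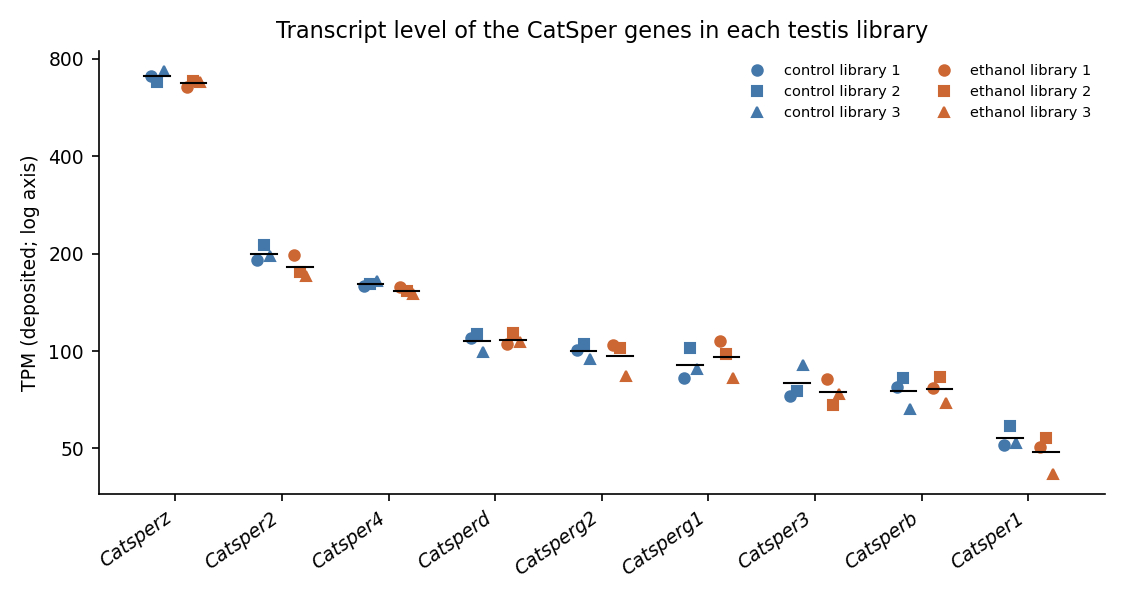
Deposited TPM (log axis) of the 9 CatSper genes in each of the 6 libraries; symbols mark library numbers, colours the diets, and short lines the mean of 3 libraries. Catsperz stands apart near 689 TPM and Catsper1 is lowest near 51.3 TPM, while the diets differ little beside the distance between genes.

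Among the pore genes, whose proteins enter the channel in equal numbers, transcript levels were unequal, and no difference in their proportions was detected between the diets. Catsper2 made up 40.4 ± 1.46% of the summed pore TPM in controls and 39.5 ± 0.84% with ethanol (SD, n = 3). Catsper4 made up 32.6 ± 0.88% and 33.6 ± 1.13%, Catsper3 16.1 ± 1.70% and 16.3 ± 1.05%, and Catsper1 10.9 ± 0.60% and 10.6 ± 1.18%. In exact two-sided permutation tests of these 4 shares (n = 3) the smallest p was 0.3, with 0.9 after Benjamini-Hochberg adjustment, and 3 against 3 libraries cannot go below 0.1. The largest difference between mean shares was 0.95 percentage points, for Catsper4, against SDs of 0.88 and 1.13 within the diets, and it was 1.59 without ethanol library 1 and 0.491 without control library 2. The difference for Catsper2 lay between -1.61 without control library 3 and -0.149 without control library 2. The differences for Catsper1 and Catsper3 turned sign in some fits without 1 library.

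Between diets, all 9 genes lay slightly lower with ethanol in TMM-scaled counts, of which Catsperg1 and Catsperd were above 0 with total counts alone and these and Catsperb in TPM, and none passed the test over all genes. Differences are log2 fold changes of read counts scaled to library size (CPM, by TMM factors). Their median over the 9 genes was -0.13, against 0.007 over the 25073 genes tested, and of all tested genes 48.5% were below 0. The median of all genes was 0.03 with total counts alone and 0.04 on the log2(TPM + 1) scale. The quasi-likelihood test of edgeR, Benjamini-Hochberg adjusted, called 0 of the 9 members, and 0.00% of all tested genes. At an unadjusted p under 0.05 there were 2 members, Catsper1 and Catsper2, both lower, beside 5.89% of all tested genes on the lower side, and 0 members were higher beside 7.45%. The 3 ethanol libraries lay below all 3 controls for Catsper1, Catsper2 and Catsperg2, beside 9.01% of all tested genes in that direction, and above them for 0 members beside 9.76%. The count of 2 was 1 without control library 3, without ethanol library 1 and without ethanol library 3, and 0 on the log2(TPM + 1) scale. The count of 3 was 5 without control library 2, and 1 in TPM and in CPM scaled by total counts alone. In TPM the 1 gene was Catsper4, at 158.6, 160.7 and 164.6 in controls and 157.5, 153.4 and 149.9 with ethanol. Catsper1, Catsper2 and Catsperg2 each overlapped between the diets in TPM. In whole tissue, fewer germ cells and less RNA per germ cell cannot be told apart.

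Of the pore genes, Catsper2 (Gene ID 212670; chromosome 2, 121391633 to 121414598, minus strand) was at 257.3, 247.1 and 253.8 CPM with the control diet and at 229.2, 221.4 and 227.1 CPM on ethanol. The groups were each tight and did not overlap, at a log2 fold change of -0.16 (SE 0.05, adjusted p = 0.240 by edgeR). Pdia3, whose start lies in the same promoter window, had overlapping values, at 208.2 ± 6.49 CPM on control diet and 215.0 ± 14.2 CPM on ethanol. In deposited TPM, Catsper2 was at 191.6, 212.1 and 196.0 in controls and 197.6, 176.1 and 170.2 with ethanol, so that on this scale ethanol library 1 lay within the control range. The transcript length implied by the ratio of counts to FPKM varied by 7.07% over the libraries for Catsper2, so that TPM and counts are not fixed multiples of each other.

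Catsper1 (Gene ID 225865; chromosome 19, 5335615 to 5344281, plus strand) was at 62.7, 65.7 and 66.6 CPM with the control diet and at 55.7, 62.4 and 51.5 CPM on ethanol. The diets did not overlap, but ethanol library 2 lay just under the lowest control and the ethanol libraries were more spread. The log2 fold change was -0.20 (SE 0.08, adjusted p = 0.294 by edgeR), and lay between -0.28 and -0.15 with any 1 library left out. It was the lowest value of the 9 genes with all 6 libraries, but not in every fit without 1 library. Without control library 2 Catsper1 was at -0.194, and Catsper3 (-0.236) and Catsperz (-0.200) were lower. Without ethanol library 3 Catsper1 was at -0.146, and Catsper3 (-0.198), Catsperz (-0.182), Catsper2 (-0.173) and Catsper4 (-0.167) were lower.

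Catsper3 (Gene ID 76856; chromosome 13, 55784500 to 55824048, plus strand) was at 52.1, 50.1 and 67.4 CPM on control diet and 53.0, 46.1 and 53.1 CPM on ethanol. A single library, control 3, stood above the other 5, which overlapped between the diets. Its log2 fold change of -0.16 (SE 0.11, adjusted p = 0.570 by edgeR) was -0.02 without control library 3, -0.09 without ethanol library 2 and -0.24 without control library 2. Catsper4 (Gene ID 329954; chromosome 4, 134211965 to 134227431, minus strand) was at 145.2, 136.8 and 157.2 CPM on control diet and 128.7, 133.4 and 138.7 CPM on ethanol. The 2 groups overlapped in CPM through ethanol library 3 and control library 2, but not in TPM. The log2 fold change was -0.13 (SE 0.07, adjusted p = 0.429 by edgeR), and -0.08 without control library 3.

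Of the auxiliary subunits, zeta and one gamma copy lay lower and the large extracellular subunits beta and delta were close to 0. Catsperz (Gene ID 67077; chromosome 19, 6922426 to 6925380, minus strand) was at 296.5, 264.0 and 320.1 CPM on control diet and 247.6, 272.3 and 285.3 CPM on ethanol. Control library 2 lay within the ethanol range, and the log2 fold change was -0.13 (SE 0.08, adjusted p = 0.513 by edgeR). Leaving out control library 3 or ethanol library 1 moved it to -0.07, and leaving out control library 2 moved it to -0.20. The potassium channel gene Kcnk4 shares 46.5% of the exonic bases of Catsperz on the same strand, and was present at no more than 0.064 CPM in any library.

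Catsperb (Gene ID 271036; chromosome 12, 101404645 to 101626009, plus strand) was at 153.6, 151.7 and 134.6 CPM on control diet and 137.2, 154.6 and 137.6 CPM on ethanol. The highest and the lowest of these values were an ethanol and a control library, and the log2 fold change was -0.03 (SE 0.07, adjusted p = 0.880 by edgeR). Catsperd (Gene ID 106757; chromosome 17, 56626911 to 56664456, plus strand) was at 144.5, 142.8 and 140.7 CPM on control diet and 128.3, 147.8 and 145.7 CPM on ethanol. Only ethanol library 1 lay below the controls, at a log2 fold change of -0.02 (SE 0.07, adjusted p = 0.923 by edgeR), and the value turned to 0.04 without that library. On the log2(TPM + 1) scale, Catsperb and Catsperd each stood at 0.02, where the median of all genes was 0.04.

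Catsperg1 (Gene ID 320225) was at 198.2, 224.8 and 215.4 CPM on control diet and 222.1, 209.6 and 201.0 CPM on ethanol, which overlapped fully. Its log2 fold change was -0.01 (SE 0.07, adjusted p = 0.959 by edgeR), and 0.08 on the log2(TPM + 1) scale. Catsperg2 (Gene ID 76718) was at 210.8, 206.9 and 208.9 CPM on control diet, and at 199.1, 204.8 and 178.5 CPM on ethanol. All 3 ethanol libraries were below the controls, with library 3 apart from the other 2, at a log2 fold change of -0.11 (SE 0.06, adjusted p = 0.511 by edgeR), which was -0.06 without that library. Because of the shared sequence shown above, the copies were also counted as 1 gene, an alternative added after the data were seen. Their sum was at 409.0, 431.7 and 424.3 CPM on control diet and 421.2, 414.4 and 379.5 CPM on ethanol, a log2 fold change of -0.06 (SE 0.06, adjusted p = 0.725 by edgeR), and the diets overlapped.

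**Figure D2:**
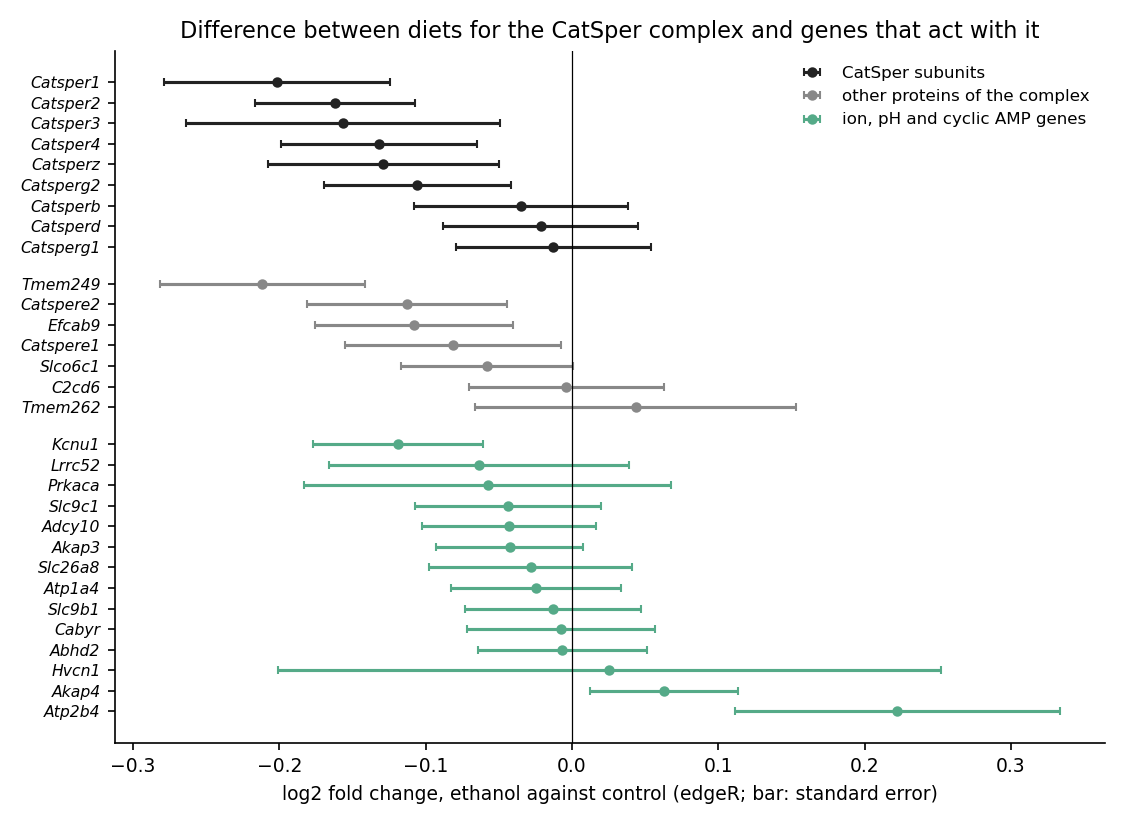
Log2 fold change (ethanol against control, edgeR on counts) with its standard error for the 9 CatSper subunit genes, 7 genes of other proteins of the complex and 14 genes of ion transport, pH and cyclic AMP signalling. All 9 subunit genes lie below 0 here, from -0.20 for Catsper1 to -0.01 for Catsperg1, while Catsperb, Catsperd and Catsperg1 were above 0 in TPM and the latter 2 also with total counts alone, and no gene shown passed the test over all genes. The median of all genes was 0.03 with total counts alone and 0.04 on the log2(TPM + 1) scale.

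Other proteins of the same complex gave a similar range. Of 7 genes, 6 lay below 0, the median was -0.08 on the log2 scale, and 0 passed the test over all genes. At an unadjusted p under 0.05 there was 1, on the lower side, beside 5.89% of all tested genes lower and 7.45% higher. That gene was Tmem249, which encodes a membrane protein of the complex, at 33.1, 33.7 and 35.4 CPM on control diet and 29.2, 30.1 and 29.0 CPM on ethanol. Its diets did not overlap, at a log2 fold change of -0.21 (SE 0.07, adjusted p = 0.237 by edgeR). Efcab9, the EF-hand protein that senses calcium and pH together with zeta, stood at -0.11 (SE 0.07), which was -0.17 without control library 2, and its CPM overlapped between the diets. The epsilon subunit copies Catspere1 and Catspere2 stood at -0.08 (SE 0.07) and -0.11 (SE 0.07). Without ethanol library 1 they were at -0.01 and -0.06, and without ethanol library 2 at -0.15 and -0.17. These copies were 93.3% identical over 2925 aligned bases, and summed to 1 gene their log2 fold change was -0.10 (SE 0.07, adjusted p = 0.590 by edgeR). Slco6c1, an organic anion transporter family member of the complex, stood at -0.06 (SE 0.06), C2cd6, a C2 domain protein needed to place the channel in the tail, at -0.004 (SE 0.07), which was above 0 with total counts alone and in TPM, and the small membrane protein Tmem262 at 0.04 (SE 0.11).

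Genes whose products act with the channel on sperm ions, pH and cyclic AMP were also compared between the diets. Of 14 such genes, 11 lay below 0, and their median was -0.03 on the log2 scale. At an unadjusted p under 0.05 there were 0, beside 5.89% of all tested genes lower and 7.45% higher. The difference between this list and the channel genes was not tested. Kcnu1, the sperm potassium channel SLO3, was at 140.5, 146.9 and 152.3 CPM on control diet and 134.5, 136.2 and 134.2 CPM on ethanol, without overlap, at -0.12 (SE 0.06, adjusted p = 0.409 by edgeR). In TPM its diets overlapped, and its value on the log2(TPM + 1) scale was -0.05. Atp2b4, a calcium pump of the plasma membrane that somatic cells also use, was at 0.22 (SE 0.11, adjusted p = 0.420 by edgeR), with overlapping libraries. It was 0.13 without ethanol library 1 or control library 3, and 0.33 without ethanol library 3. The anchoring proteins of the fibrous sheath stood at -0.04 (SE 0.05) for Akap3 and at 0.06 (SE 0.05) for Akap4. For Akap3 every ethanol library was below the controls in CPM, but its value was above 0 in TPM. For Akap4 every ethanol library was above the controls in CPM. In TPM its ethanol library 3, at 1488, lay within the control range of 1398 to 1512. Slc9c1, the sperm sodium/proton exchanger, was at -0.04 (SE 0.06) and Adcy10, the soluble adenylyl cyclase that bicarbonate activates, at -0.04 (SE 0.06).

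Marker genes of germ cell stages and of somatic cells were set beside these values. In TMM-scaled counts the round spermatid markers had 8 of 8 genes below 0, at a median log2 fold change of -0.13. The spermatocyte markers had 8 of 8 below 0 with a median of -0.16, and the elongating spermatid markers 5 of 8 with a median of -0.04. Not all of these genes were lower in TPM. Mean TPM was higher with ethanol for Acrv1, Tssk1 and Spaca3 (round spermatids) and for Sycp3 and Ldhc (spermatocytes). The same held for Prm1 and Gapdhs (elongating spermatids). Summed CPM of the round spermatid markers was 1244.07 to 1406 in controls and 1191 to 1244.06 with ethanol, and that of the 9 CatSper genes 1490 to 1565 and 1401 to 1452. The spermatocyte markers summed to 6031 to 6362 CPM and 5603 to 6001 CPM, without overlap, and those of elongating spermatids to 11931 to 14302 and 11860 to 14738 CPM, which overlapped. In deposited TPM the sums of the 9 CatSper genes did not overlap either, at 1551 to 1585 and 1452 to 1537, while those of the round spermatid markers (1828 to 1933 and 1777 to 1880) and of the spermatocyte markers (7305 to 7658 and 7259 to 7482) did. The largest part of the CatSper sum was Catsperz, at 706 ± 28.7 TPM in controls and 672 ± 15.1 with ethanol, which overlapped. Catsperb, Catsperd and Catsperg1 had a higher mean TPM with ethanol. Sertoli cell markers lay the other way, with 8 of 8 above 0, a median of 0.29 and a summed level of 315.5 to 356.2 CPM on control diet and 387.1 to 450.6 CPM on ethanol. Macrophage and blood markers had 6 of 6 above 0, with a sum of 33.2 to 41.3 CPM and 50.7 to 54.8 CPM. Only the globin genes among them did not overlap, with means of 9.43 and 18.8 CPM for Hbb-bs and 4.85 and 7.29 CPM for Hba-a1. The leukocyte genes Csf1r, Adgre1, Cd68 and Ptprc overlapped between the diets, at log2 fold changes of 0.15, 0.06, 0.27 and 0.11. Spermatogonial markers had 6 of 7 above 0, each overlapping between the diets, and a median of 0.13, at 105.5 to 118.3 CPM and 108.0 to 119.5 CPM. The other gene, Id4, was at -0.41 (SE 0.09, adjusted p = 0.153 by edgeR), with every ethanol library below the controls. Leydig cell markers had 4 of 6 below 0 and a median of -0.04, at 585.1 to 622.1 CPM and 492.8 to 616.3 CPM. The Leydig cell markers differed widely. Cyp11a1 was at -1.30 (SE 0.24, adjusted p = 0.127 by edgeR) without overlap, and Cyp17a1 at -0.67 (SE 0.20) with overlap. Hsd3b1 and Star stood at 0.15 and 0.12, and Insl3 and Lhcgr at -0.04 each. The part of cell makeup in the CatSper values was not tested. None of 6 genes of the epididymal epithelium was abundant enough to test, with a sum of at most 0.512 CPM in any library and Lcn5 at 0 in all.

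The 9 genes did not all vary together over the 6 libraries. Averaged over the genes, the log2 CPM lay above each gene's own mean in the 3 control libraries, by 0.039, 0.020 and 0.099, and below it in the ethanol libraries, by -0.072, -0.023 and -0.063. Single genes departed from this: 8 of the 9 were below their mean in ethanol library 1, 7 in ethanol library 3 and 5 in ethanol library 2. The 3 genes with the shortest transcripts by the ratio of counts to FPKM, Catsperz, Catsper3 and Catsper4, were each highest in control library 3, by 0.19, 0.34 and 0.17 above their mean. Catsper1, with 2523 bases, was also highest there, by 0.14. The 3 shorter transcripts had 866, 1480 and 1891 bases. In that library the trend of all genes with transcript length was at 0.0655 for genes of 1000 bases, 0.0409 for 1500, 0.00639 for 2500 and -0.0311 for 4000 bases. With an offset for this trend, added after the data were seen, the median over the 9 genes was -0.11 and Catsper2 stood at -0.16 (adjusted p = 0.208 by edgeR).

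**Figure D3:**
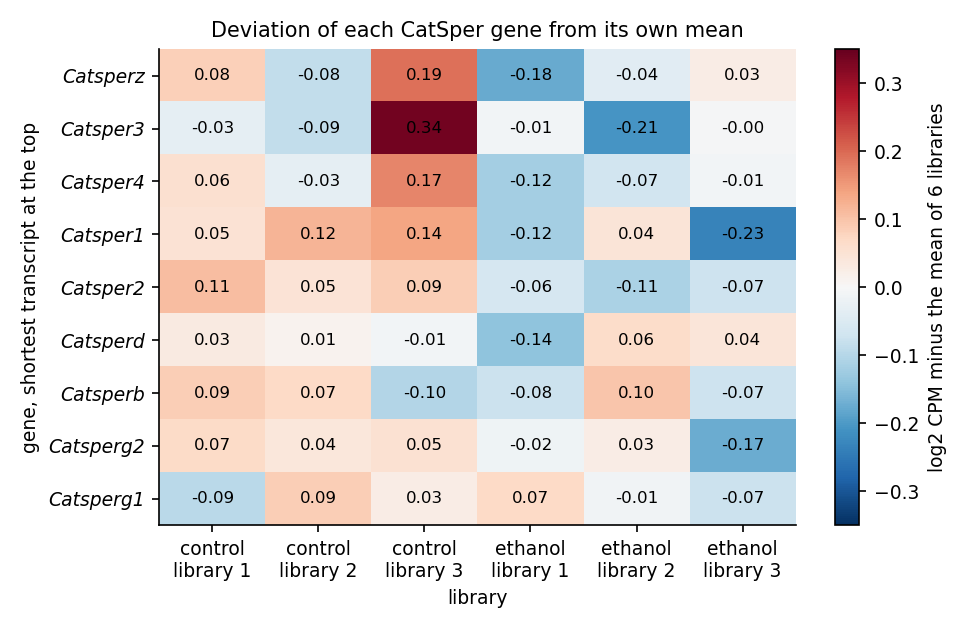
Log2 CPM of each CatSper gene minus its own mean over the 6 libraries, with libraries in columns and genes in rows from the shortest transcript to the longest. Control library 3 holds the highest values for Catsperz, Catsper3, Catsper4 and Catsper1 (0.19, 0.34, 0.17 and 0.14), and Catsper2 lies between 0.05 and 0.11 in the controls and between -0.11 and -0.06 with ethanol.

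The genes most like the CatSper average over the 6 libraries were named from 11221 genes that averaged 5 CPM or more. They were Cngb3, a subunit of a cyclic nucleotide-gated channel of cone photoreceptors, the ribosome assembly factor Brix1, the heat shock factor family member Hsfy2, the uncharacterised LOC115489026, the thrombospondin gene Thbs3 and Trmt1l, a relative of a tRNA methyltransferase. Pearson correlations with the average ran from 0.987 for Trmt1l to 0.994 for Cngb3, as a description of 6 libraries that share their depth and length trends. Cngb3 was at 17.5 ± 1.64 CPM on control diet and 14.3 ± 0.98 CPM on ethanol, and Hsfy2 at 137.5 ± 5.72 and 123.7 ± 3.72 CPM (SD, n = 3). The average they were chosen by was itself lower in every ethanol library, so lower values with ethanol follow from the choice.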

How the data were processed

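Total RNA libraries of mouse testis (3 per diet) were made with a stranded kit after ribosomal RNA removal, per the labels' protocols, and reads were mapped to mm10 by HISAT2, per the submitters' processing notes. Which tool counted the reads, with which annotation and strand option, is not given in the sources used here. The authors deposited raw read counts per gene, and beside them FPKM and TPM, per the file headers. There were 0 sample columns outside the 6 libraries.

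Counts were tested with edgeR 4.0.16 in R 4.3.3 (filterByExpr, TMM, quasi-likelihood F-test, no covariate, Benjamini-Hochberg over 25073 genes). Standard errors were the fold change divided by the root of F. The procedure was tested on simulated counts. No pair of libraries was alike within sampling noise (lowest chi-square per gene, 7.67). CPM shown are TMM-scaled. Positions came from the RefSeq table of GRCm38.p6, which is mm10, with strands and transcripts from GENCODE M21. Transcripts were aligned with Biopython 1.88.

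All members, all complex partners and, of the signalling list, the 4 genes of smallest p and those without overlap between diets were to be named; Slc9c1 and Adcy10 were added after their values were seen. Genes of most similar pattern were the 6 of highest Pearson correlation with the members' mean centred log2 CPM (prior count 2). Members and genes with Gm or Rik symbols were left out of that search. The members and lists were chosen with earlier results of these data known. Alternatives were other scalings, filters and tests (DESeq2 1.42.0, limma 3.58.1), limma on log2(TPM + 1) or log2(TPM + 0.1), a block for the replicate number, and each library left out.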

Additional observations from a re-analysis of the deposited data

How the results depend on the processing

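No alternative called any of the 9 CatSper genes at an adjusted p under 0.05, and the lowest adjusted p was 0.171, for Catsper2. Over all genes, calls higher and lower were 203 and 127 with DESeq2, 3 and 2 with limma-voom, 5 and 1 with the length offset, 2 and 0 with 1 CPM in 3 libraries, 2 and 0 with upper-quartile scaling, and 0 to 1 and 0 to 2 with 1 library left out. The replicate number as a block gave 5 and 10. Same-numbered libraries deviated with correlations of -0.0581, 0.00288 and 0.127, and differently numbered ones with -0.16 to 0.158. Not every library was closest to its own number. Correlations this weak cannot decide whether the numbers pair the samples, and the labels do not state a pairing. The median over the members ran from -0.18 without control library 2 to -0.07 in log2(TPM + 1), where the median of all genes was 0.04.

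Members lower at an unadjusted p under 0.05 numbered 0 in log2(TPM + 1) and log2(TPM + 0.1), 3 with the length offset, and 1 to 3 with 1 library left out. Members without overlap numbered 1 in TPM (Catsper4), 1 with total counts alone, 2 with upper-quartile scaling, and 3 to 5 with 1 library left out. Signs turned on the TPM scale (pseudocounts 1 and 0.1) for Akap3 (0.0139 and 0.0139), C2cd6 (0.0560 and 0.0562), Catsperb (0.0201 and 0.0204), Catsperd (0.0191 and 0.0192) and Catsperg1 (0.0765 and 0.0772). With total counts alone they turned for C2cd6 (0.0217), Catsperd (0.0036) and Catsperg1 (0.0129), each below the median of all genes there, 0.0319. The cause was not tested. With 1 library left out, ranges were -0.0745 to 0.0403 for C2cd6, -0.0591 to 0.0405 for Catsperd, -0.0687 to 0.0280 for Catsperg1 and -0.0489 to 0.171 for Tmem262. Share differences ran from -0.930 to 0.223 percentage points for Catsper1, from -1.61 to -0.149 for Catsper2, from -0.374 to 1.19 for Catsper3 and from 0.491 to 1.59 for Catsper4. The libraries' spread, at a standard error of 0.05 to 0.11 per CatSper gene, limits what could be called.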
